A study of Mus musculus with 10 samples.

Results

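The colorectum of mice given miR-29 was compared with that of mice given a control miRNA 4 days into colitis induction. The comparison takes 6 of the 10 libraries of the series: 2 labelled miR-29a and 2 labelled miR-29b, pooled as 4 miR-29 libraries, against 2 labelled NC-miR, all chosen by their day 4 sample titles. All 6 came from BALB/c mice of 7 weeks given 2% dextran sodium sulfate (DSS), a polysaccharide that injures the colon epithelium. Their miRNA was loaded in super carbonate apatite (sCA), a mineral nanoparticle carrier, and given by tail vein injection on days 1 to 3, so DSS, carrier and injections were common to both sides. Untreated normal mice of the same strain and age, taken on day 0 (2 libraries), serve below as the reference level. The 2 NC-miR libraries of day 2 enter only the estimate of spread, the marking of low values and the choice of measured features. The labels name the tissue both colorectum and rectum, and they do not say whether the libraries of a group came from separate mice, so the p-values measure the spread between these libraries. They also do not give the sequence of NC-miR or the arm of miR-29 that was injected.

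A miRNA guides a silencing complex to messenger RNAs whose 3′ untranslated region (3′ UTR) pairs with its seed, the bases 2 to 8 at its 5′ end, and lowers their level or translation. The miR-29 family is best known for repressing collagens and other matrix genes, DNA methyltransferases and the anti-apoptotic gene Mcl1. The mature mouse sequences of both arms, from RefSeq (GRCm38.p6), are shown because the searches for target sites below rest on them. Capitals mark the seed.
miR-29a-3p: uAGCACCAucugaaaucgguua
miR-29b-3p: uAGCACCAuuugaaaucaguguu
miR-29a-5p: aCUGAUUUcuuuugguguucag
miR-29b-1-5p: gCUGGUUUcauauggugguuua
miR-29b-2-5p: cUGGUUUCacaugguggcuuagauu
Mir29a and Mir29b-1 lie close together on chromosome 6 of GRCm38.p6, where miR-29a-3p spans 31062673 to 31062694 and miR-29b-3p spans 31063025 to 31063047, both on the minus strand. The second copy of miR-29b-3p, from Mir29b-2, lies on chromosome 1 at 195037091 to 195037113 on the plus strand. The 3p arms of miR-29a (22 bases) and miR-29b (23 bases) share their seed and differ at 4 positions counted from the 5′ end, C10U, G18A, U21G and A22U (miR-29a first). The passenger arms carry other seeds.

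Each deposited value is a log2 ratio to that gene's baseline, with low values raised to a floor, and is printed here as log2 relative to the mean of the 2 normal libraries. A feature counted as measured when in at least 1 of the 5 groups of the series both libraries exceeded the floor, which 13050 of 23284 features did. The 6 libraries had 12677 to 12931 features above the floor, and without read counts in the files their depth cannot be stated. Markers of the labelled tissue were present: 26 of 32 listed absorptive colonocyte genes, 16 of 19 goblet cell genes and 13 of 14 smooth muscle genes were measured. One NC-miR library (replicate 1) held keratins of squamous epithelium far above the other 5: Krt14 was at 6.67 there, at 0.12 in NC-miR replicate 2 and between -0.59 and 0.80 in the miR-29 libraries. The other NC-miR library (replicate 2) was the lowest of the 6 in the median of the smooth muscle list (-0.42 against 0.05, 0.05, 0.09 and 0.05 in the miR-29 libraries). List medians that depend on either library are given without it as well.

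One feature passed the test. With limma fitted over the 13050 features and Benjamini-Hochberg adjustment, Snord16a was called higher in the miR-29 libraries (0.00766% of the features) and none was called lower. At an unadjusted p under 0.05 the same fit gave 836 features higher (6.41%) and 569 lower (4.36%), and no measured feature above the floor in all 6 libraries had an adjusted p below 0.198. A looser description asks only that the groups do not overlap, and it names the genes that moved the same way in all 4 miR-29 libraries. All 4 lay above both NC-miR libraries for 1421 features (10.9%) and below both for 1292 (9.9%). These differences were small: their median was 0.35 among the higher features and -0.29 among the lower ones, against 0.02 over all features and a median standard error of 0.16. The distance between the nearest libraries of the 2 sides was at least 0.5 for 22 of the higher features and 18 of the lower ones. Features without overlap are therefore described below by their values, not as calls.

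**Figure D1:**
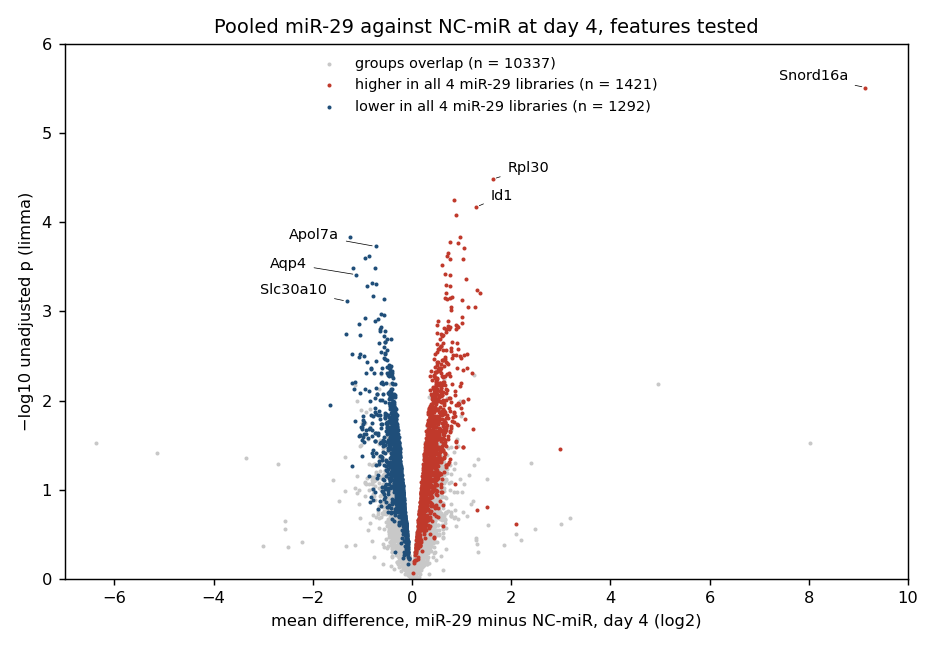
Each point is 1 of the 13050 features tested, with the mean difference of the 4 miR-29 libraries from the 2 NC-miR libraries (log2) on the x axis and −log10 of the unadjusted limma p on the y axis. Red points (1421) lay higher in all 4 miR-29 libraries, blue points (1292) lower in all 4, and grey points overlapped. Snord16a stands alone at the upper right.

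Snord16a is a C/D box small nucleolar RNA, of the class that guides methylation of ribosomal RNA. It stood at 0.81 and -0.34 in the miR-29a libraries, at 0.73 and -0.48 in the miR-29b libraries, and at -8.94 and -8.98 in the NC-miR libraries, where it lay at the floor. The normal libraries were at -0.47 and 0.47, so the miR-29 libraries stood at the normal level and the NC-miR libraries alone were at the floor. A floor value does not show that the transcript was absent. The difference was 9.14 ± 0.83 (limma standard error, n = 4 and 2, adjusted p = 0.0401 over all features), and its size depends on where the authors set the floor. The call was lost with robust variances (adjusted p = 0.0749) and whenever any 1 of the 6 libraries or of the 2 normal libraries was left out (adjusted p = 0.076 to 0.229), with the difference between 8.84 and 9.44. The RNA in question is printed in full because it is the single call. Its GENCODE M21 transcript spans chr9:64175423-64175521 of GRCm38 on the plus strand, and capitals mark the D box letters CTGA, found at bases 93 to 96.
Snord16a: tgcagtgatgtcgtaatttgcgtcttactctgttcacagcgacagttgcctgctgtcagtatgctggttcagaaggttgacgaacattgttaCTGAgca
It lies inside Rpl4, between an exon that ends at 64175300 and one that starts at 64175584, and 1 of the 3 Rpl4 transcripts in GENCODE keeps that stretch as an exon. Reads from an unspliced Rpl4 transcript and from Snord16a could not be told apart here. Rpl4 itself, a ribosomal protein gene, stood at 0.26, 0.12, -0.39 and 0.06 in the miR-29 libraries and at -0.19 and -0.06 in the NC-miR libraries (difference 0.13 ± 0.14, limma adjusted p = 0.736).

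Other small RNAs were scattered. A library made from poly(A) RNA captures them poorly, and of 775 small RNA features 39 were measured and 693 lay at the floor in all 10 libraries. Of the 39, 3 were higher in all 4 miR-29 libraries (7.7%, against 10.9% of all features) and none lower, with a median difference of 0.78, or 0.19 with the trend of GC content and length removed and 1.28 without NC-miR replicate 2. Snora64, a small nucleolar RNA, was at its floor with NC-miR (-6.55 and -6.59) and in miR-29b replicate 2 (-6.56), but at 0.52, 0.37 and -0.77 in the others. Mir1892 went the other way, at -1.18 and -3.31 in the NC-miR libraries, at -0.53 in miR-29a replicate 1 and at the floor in the other 3 miR-29 libraries. Neither passed (limma adjusted p = 0.404 and 0.434). The injected miRNAs themselves could not be assessed in these libraries. The precursor features Mir29a, Mir29b-1 and Mir29b-2 lay at the floor in all 10 libraries, which does not show whether injected miRNA reached the tissue. Mir29c stood at 1.13 and 1.70 with miR-29a, at -0.69 and -0.48 with miR-29b, and at -1.35 and 0.63 with NC-miR, so its groups overlapped.

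Switching between floor and signal was otherwise limited to weak features. Including Snord16a, 25 features were at the floor with NC-miR, in both libraries, and above it in all 4 miR-29 libraries, and 14 did the reverse. For 22 of the 25 and 12 of the 14, the mean distance from the floor was under 1 on the log2 scale. Ass1, which makes argininosuccinate in arginine synthesis, stood at 1.39, 0.56, 0.52 and 0.34 with miR-29 and at the floor (-0.50 and -0.54) with NC-miR. Ccl22, a chemokine for regulatory T cells, stood at 0.91, 0.30, 0.69 and 0.46 against the floor at -0.02 and -0.05. In the opposite direction, Spink5, an inhibitor of epidermal proteases, lay at the floor in all 4 miR-29 libraries and at 1.58 and 0.75 with NC-miR. Spink5 had its higher value in the same NC-miR library that held the squamous keratins. None of these 3 passed (limma adjusted p = 0.385, 0.404 and 0.215).

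Among genes above the floor in all 6 libraries, Rpl30 had the smallest p of those higher with miR-29. It encodes a protein of the large ribosomal subunit and lies at chr15:34440505-34443276 (GRCm38.p6). It stood at 0.16 and -0.23 with miR-29a, at -0.18 and 0.24 with miR-29b, and at -1.66 and -1.61 with NC-miR. The normal libraries, at 0.20 and -0.20, lay with the miR-29 libraries, so here too the NC-miR libraries were the ones away from normal. The difference was 1.63 ± 0.20 (3.10-fold, limma adjusted p = 0.198). NC-miR against normal, which shares those NC-miR libraries, gave -1.64 ± 0.23 for Rpl30 and -8.96 ± 0.95 for Snord16a.

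Rpl30 was the far end of a list-wide pattern. All 80 measured genes for cytosolic ribosomal proteins had a higher mean with miR-29, and 18 of them were higher in all 4 libraries (22.5%, against 10.9% of all features) and none lower. Their median difference was 0.34, against 0.02 over all features, and none passed adjustment. The median was 0.23 without NC-miR replicate 1 and 0.45 without replicate 2. Against NC-miR replicate 1 alone 64 of the 80 were above in all 4 miR-29 libraries, as were 2838 of all 13050 features. Against replicate 2 alone 18 of the 80 were, a smaller share than the 3500 of all 13050 features. The libraries themselves overlapped: the list's median stood at 0.10 and 0.06 with miR-29a, at -0.32 and 0.20 with miR-29b, and at -0.43 and -0.21 with NC-miR, so miR-29b replicate 1 lay between the NC-miR libraries. Rps21, Rplp2 and Rps28, also ribosomal proteins, followed Rpl30 in p, with differences of 0.69 ± 0.16, 0.61 ± 0.16 and 0.69 ± 0.20. With the trend of GC content and length removed, the median of the list was 0.20. Many of these genes have processed pseudogenes that share reads with them, so single members are uncertain.

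The inhibitors of differentiation Id1 and Id3 were also among the higher genes of smallest p. They block basic helix-loop-helix factors and are classic targets of bone morphogenetic protein (BMP) signalling. Zfp688 lay between Rpl30 and Id1 in p, and Ugt1a1, Tspan4, Fbxl15, Tmem203, Rsph9, Dmwd and Rdh5 lay between Id1 and Id3. Id1 stood at -0.23 and 0.10 with miR-29a, at 0.67 and 1.03 with miR-29b, and at -0.92 and -0.88 with NC-miR (difference 1.29 ± 0.18, 2.45-fold, limma adjusted p = 0.198). Id3 stood at -0.62 and -0.50 with miR-29a, at 0.12 and 0.18 with miR-29b, and at -1.09 and -1.35 with NC-miR (difference 1.02 ± 0.17, limma adjusted p = 0.198). In both genes the miR-29b libraries lay above the miR-29a libraries, which lay above NC-miR. Other BMP-responsive genes were chosen after their values were seen, so they lend no support to a shared pattern. Smad6 (1.01 ± 0.21), Smad7 (0.57 ± 0.16), Id2 (0.45 ± 0.15) and Id4 (0.43 ± 0.23) were higher in all 4 miR-29 libraries. The nearest libraries of the 2 sides lay only 0.48, 0.13, 0.13 and 0.08 apart, in that order. None passed (limma adjusted p = 0.315 to 0.503). Smad6 and Smad7 inhibit signalling by BMP and transforming growth factor beta.

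The remaining higher genes of smallest p were of varied function, each with a limma adjusted p of 0.198. Ugt1a1, which conjugates bilirubin and drugs with glucuronic acid, stood at 1.80 and 1.85 with miR-29a, at 1.04 and 1.25 with miR-29b, and at 0.50 and 0.72 with NC-miR, so it lay above normal in all 6 libraries and highest with miR-29a. Ugt1a1 shares exons with the other genes of its cluster, which makes its own level uncertain. Tspan4, a tetraspanin, showed the same order of groups against normal, at 1.51, 1.24, 1.33 and 1.26 against 0.57 and 0.17. The genes Rsph9 (a radial spoke protein of cilia, 1.04 ± 0.16), Tmem203 (0.92 ± 0.14), Zfp688 (0.85 ± 0.11), Fbxl15 (0.77 ± 0.12), Dmwd (0.73 ± 0.12) and Rdh5 (a retinol dehydrogenase, 0.70 ± 0.11) had a different arrangement: both NC-miR libraries lay below both normal libraries in each of them.

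Among the lower genes, Apol7a, an apolipoprotein L family member, had the smallest p of those above the floor. It stood at -0.05, 0.11, -0.07 and 0.15 with miR-29 and at 0.80 and 0.73 with NC-miR, so the miR-29 libraries were at the normal level (difference -0.73 ± 0.11, limma adjusted p = 0.198). Homer1, a synaptic scaffold protein, had the same form, at -0.06, -0.13, 0.10 and -0.02 against 0.70 and 0.72. Aqp4, a water channel, stood at 0.40 and 0.60 with miR-29a, at 1.22 and 0.58 with miR-29b, and at 1.90 and 1.73 with NC-miR (difference -1.12 ± 0.19, limma adjusted p = 0.22). Slc30a10, a manganese exporter, stood at 0.49, 0.15, -0.22 and 0.63 against 1.76 and 1.39, the largest mean difference of the 12 lower genes named by the rule (-1.31 ± 0.25, limma adjusted p = 0.251). For Aqp4 and Slc30a10 both NC-miR libraries were above normal, and for Aqp4 the miR-29 libraries lay between.

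In Ceacam2 and Rasef it was the miR-29 libraries that stood away from normal. Ceacam2, a cell adhesion molecule, stood at -0.93, -0.60, -0.51 and -0.63 against 0.17 and 0.11 with NC-miR and -0.12 and 0.12 in normal tissue. Rasef, a Rab family GTPase, stood at -0.66, -0.54, -0.50 and -0.72 against -0.07 and -0.03. Serpina9, a serpin known from germinal centre B cells, split by miRNA: it stood at -0.04 and -0.39 with miR-29a but at -1.19 and -1.37 with miR-29b, against 0.07 and 0.18 with NC-miR. The 5 other genes of the rule were Ccdc99 (a mitotic spindle protein, -1.06 ± 0.22), Hao2 (a peroxisomal hydroxy acid oxidase, -0.78 ± 0.15), Zfp119a (-0.74 ± 0.16), Fam122b (-0.63 ± 0.13) and Lipo1 (a lipase, -0.56 ± 0.11). Their limma adjusted p ran from 0.248 to 0.315. The NC-miR mean lay further from normal than the miR-29 mean in Ccdc99 (0.62 against -0.44) and Hao2 (0.53 against -0.24). The same held for Fam122b (0.40 against -0.23) and Lipo1 (0.94 against 0.39). In Zfp119a the miR-29 mean lay further (-0.51, against 0.23 with NC-miR).

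**Figure D2:**
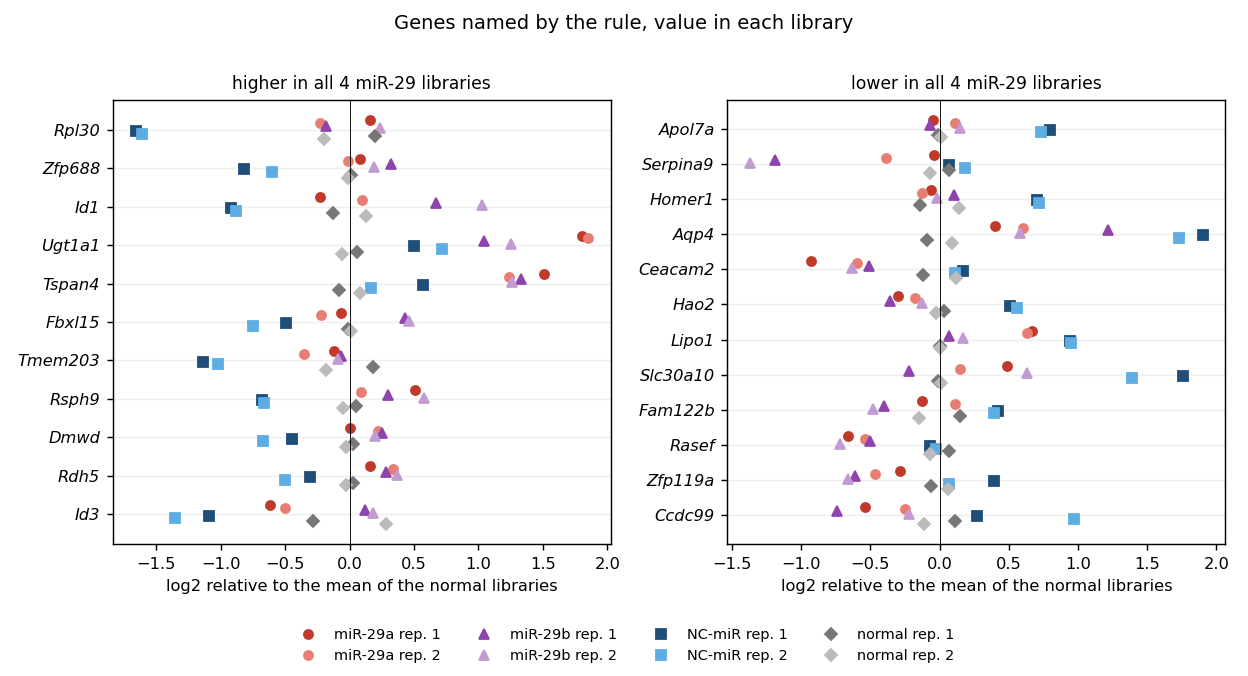
Values of 11 genes higher (left) and 12 genes lower (right) in all 4 miR-29 libraries, on the x axis as log2 relative to the mean of the 2 normal libraries. Each symbol is 1 library. Rpl30, Zfp688 and Tmem203 show both NC-miR libraries below the normal libraries, and Ceacam2 and Rasef show the miR-29 libraries below them.

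Most genes induced by type I interferon had a lower mean with miR-29 than with NC-miR. Type I interferon signals through a cell surface receptor to genes that detect or block viral nucleic acid. Of the 40 measured members of the list, 39 had a lower mean with miR-29, 18 were lower in all 4 libraries (45.0%, against 9.9% of all features), none was higher in all 4, and none passed adjustment. Their median difference was -0.57, and -0.59 with GC content and length removed. The list's median stood above normal in every library, at 0.61 and 0.77 with miR-29a, at 0.83 and 1.18 with miR-29b, and at 1.64 and 1.09 with NC-miR. The ranges thus touched, since miR-29b replicate 2 lay above NC-miR replicate 2. Against NC-miR replicate 1 alone 36 of the 40 were below in all 4 miR-29 libraries, as were 2817 of all 13050 features. Against replicate 2 alone 18 of the 40 were, as were 2906 of all 13050 features. The median difference was -0.31 without NC-miR replicate 1 and -0.78 without replicate 2.

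Single members differed in how far the groups lay apart. Ddx60, a helicase that aids RNA sensing, stood at 2.34 and 2.78 with miR-29a, at 2.01 and 2.25 with miR-29b, and at 3.58 and 3.18 with NC-miR (difference -1.04 ± 0.23, limma adjusted p = 0.324). Herc6, a ligase that attaches the ubiquitin-like protein ISG15, stood at 0.89, 1.00, 0.83 and 1.03 against 2.11 and 1.67 (difference -0.96 ± 0.23, limma adjusted p = 0.369). The groups did not overlap in either gene, with Herc6 the tighter of the pair. Oasl2, an oligoadenylate synthetase-like protein, stood at 2.27, 2.61, 2.10 and 2.99 against 3.96 and 3.45, and its relative Oas2 stood at 0.69, 0.97, 1.29 and 2.01 against 3.43 and 2.35. Isg15 overlapped, at 1.65, 2.41, 2.02 and 3.03 against 3.45 and 2.73. Ifnar1, which encodes a subunit of the interferon receptor, stood at -0.26, -0.07, -0.20 and -0.30 against -0.10 and -0.26 (difference -0.02 ± 0.12). The 3′ UTR of its longest GENCODE M21 transcript held no match to bases 2 to 8 of the miR-29 3p arms. Shorter matches and other transcripts were not searched.

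The interferon-stimulated response element is the promoter motif through which type I interferon acts on its target genes. Its core, GAAA followed by any 2 bases and a further GAAA, searched on both strands from 250 bases before to 50 after the start, was held by 15 of the 29 listed genes that have a promoter in the RefSeq table (51.7%, against 3.49% of all 27025 promoters). Among members lower in all 4 libraries 7 of 12 held it, and among the others 8 of 17. The motif is not particular to this list. In the interferon-gamma and antigen presentation list, whose median difference was 0.03, 12 of 27 genes with a promoter held it (44.4%). The stretches around the motif in Ddx60 and Isg15 are shown as a type I member that separated and one that overlapped, with the motif in capitals. They are chr8:61928038-61928086 on the plus strand and chr4:156200845-156200914 on the minus strand (RefSeq, GRCm38.p6).
Ddx60: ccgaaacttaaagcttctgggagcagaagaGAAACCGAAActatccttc
Isg15: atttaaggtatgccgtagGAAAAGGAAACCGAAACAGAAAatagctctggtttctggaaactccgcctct
In Isg15 several copies overlap. These letters are absent from the tabled windows of Oasl2 and Herc6.

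**Figure D3:**
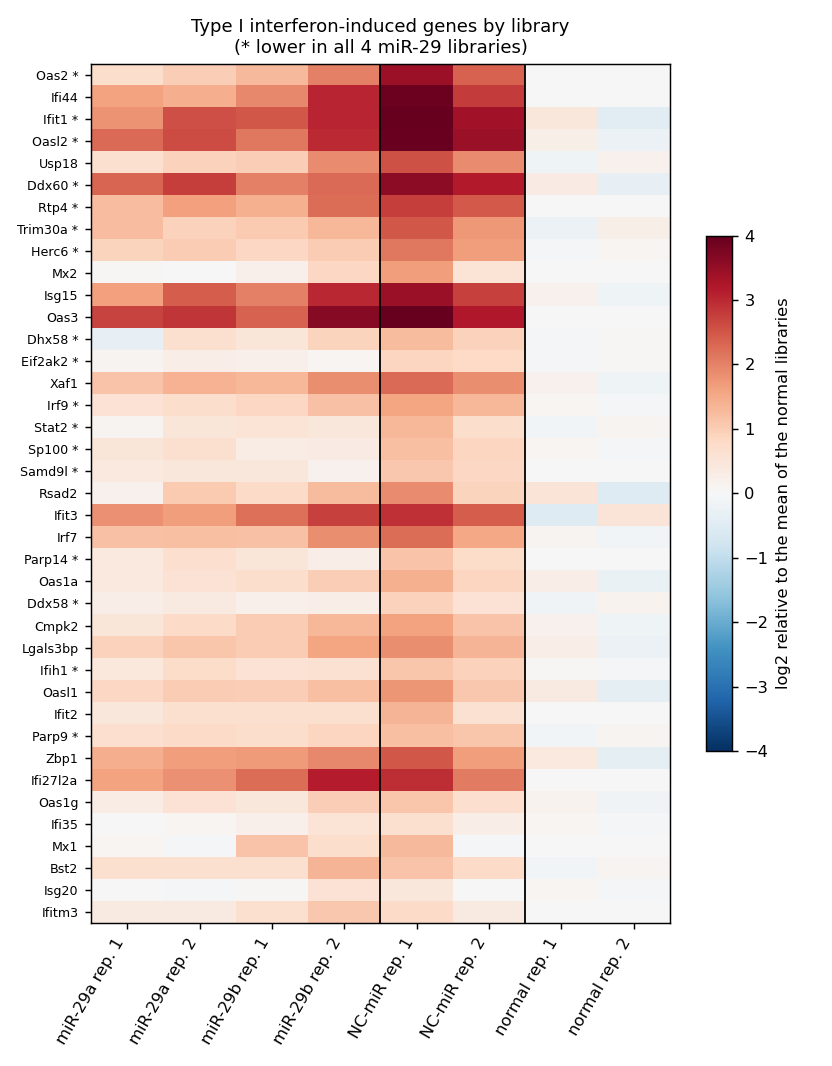
Values of 39 of the 40 type I interferon-induced genes (rows, ordered by the miR-29 minus NC-miR difference) in 8 libraries (columns), coloured by log2 relative to the mean of the 2 normal libraries. Colours end at 4, and the highest value drawn is 4.11. NC-miR replicate 1 is the darkest column, and asterisks mark the 17 genes drawn that lay lower in all 4 miR-29 libraries.

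The interferon-gamma and antigen presentation list had genes without overlap in both directions. Of 39 measured, 6 were higher in all 4 libraries (15.4%, against 10.9% of all features) and 4 lower (10.3%, against 9.9%). The median difference was 0.03, but 0.19 without NC-miR replicate 1 and -0.16 without replicate 2. Ubd, a ubiquitin-like modifier induced by inflammatory cytokines, stood at 0.90 and 0.93 with miR-29a, at 0.28 and 0.48 with miR-29b, and at -0.10 and 0.08 with NC-miR (difference 0.66 ± 0.13, limma adjusted p = 0.248). The MHC class II genes H2-Aa, H2-Eb1 and H2-Ab1, which present peptides to helper T cells, had differences of 0.53 ± 0.18, 0.55 ± 0.19 and 0.42 ± 0.17. They were higher in all 4, but the nearest libraries of the 2 sides lay only 0.01, 0.17 and 0.05 apart. None passed (limma adjusted p = 0.419 to 0.456). In these 3 genes both NC-miR libraries lay below both normal libraries. Among 14 measured cytokines and chemokines 2 were higher in all 4 (14.3%, against 10.9% of all features) and none lower. Ccl20, which draws CCR6-bearing lymphocytes, stood at -0.29, -0.23, -0.22 and 0.19 against -1.06 and -0.78, and Ccl8, a monocyte chemokine, between 2.01 and 2.89 in the 4 miR-29 libraries against 1.64 and 0.96. Il1b overlapped, and its 1.10 in miR-29b replicate 2 stood apart from -0.04, 0.10 and -0.04 in the other miR-29 libraries.

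Of 18 measured genes of the circadian clock 7 were higher in all 4 miR-29 libraries (38.9%, against 10.9% of all features) and 1 lower (5.6%, against 9.9%), and none passed adjustment. The median difference was 0.12, or 0.22 without NC-miR replicate 1 and 0.28 without replicate 2. It was 0.20 without miR-29a replicate 2 and also without miR-29b replicate 1. Gm129, the symbol deposited for the clock repressor Chrono, stood at 4.67 and 4.37 with miR-29a, at 4.47 and 4.15 with miR-29b, and at 3.28 and 3.74 with NC-miR (difference 0.91 ± 0.19, limma adjusted p = 0.315). The period gene Per3 had a difference of 0.56 ± 0.13 and the PAR-domain factor Tef one of 0.44 ± 0.11. Dbp, a factor related to Tef, stood far above normal in every library, at 4.93, 4.62, 4.64 and 4.34 with miR-29 and 4.05 and 4.38 with NC-miR, and its groups overlapped. Arntl, the core activator, stood at -2.28, -2.16, -2.30 and -2.23 against -1.87 and -2.52 (difference -0.05 ± 0.17). The labels give no hour of tissue collection, and its part in these values was not tested.

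Genes that answer to glucocorticoid hormone, of which 18 were measured, had a median difference of 0.40, with 5 higher in all 4 libraries (27.8%, against 10.9% of all features) and none lower. Cdkn1a, the cell cycle inhibitor p21, stood at 0.35, 0.75, 0.47 and 0.38 against -0.11 and 0.03 (difference 0.53 ± 0.14, limma adjusted p = 0.385). Per1, which belongs to the clock as well, had a difference of 0.64 ± 0.21, and Nfkbia, the inhibitor of NF-kappaB, one of 0.46 ± 0.17. Tsc22d3, a glucocorticoid-induced leucine zipper protein, overlapped at 0.41 ± 0.15.

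Immediate early genes, which respond to stimulation within minutes, differed mostly through a single library. Of 18 measured, 17 had a higher mean with miR-29, as had 54.1% of all features, and 3 were higher in all 4 (16.7%, against 10.9%). Their median difference was 0.59, or 0.28 without miR-29b replicate 2. The list's median was 1.42 in miR-29b replicate 2, against 0.11, 0.07 and 0.33 in the other miR-29 libraries and 0.23 and -0.21 with NC-miR. Junb stood at 0.69, 0.31, 1.31 and 1.80 against 0.13 and 0.17, and Jund at -0.24, -0.46, 0.11 and 0.49 against -0.51 and -0.65. Both are subunits of the AP-1 transcription factor. Jun and Ier2 reached 0.95 and 1.47 in miR-29b replicate 2 and overlapped with NC-miR in the miR-29a libraries.

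Cell cycle genes leaned lower, again unevenly. Of 34 measured, 7 were lower in all 4 libraries (20.6%, against 9.9% of all features) and none higher, with a median difference of -0.46. Both sides varied: the median stood at -0.38, -0.15, -0.99 and -0.07 with miR-29 and at -0.25 and 0.39 with NC-miR. Against NC-miR replicate 2 alone 25 of the 34 were below in all 4, as were 2906 of all 13050 features. Against replicate 1 alone 8 of the 34 were, near the share of all features (2817 of 13050). Without NC-miR replicate 2 the median difference was -0.33, without NC-miR replicate 1 it was -0.70, and without miR-29b replicate 1 it was -0.27. Bub1, a spindle checkpoint kinase, stood at -0.63, -0.57, -1.83 and -0.87 against -0.10 and 0.48 (difference -1.17 ± 0.33, limma adjusted p = 0.405). The mitotic motors Cenpe (-1.15 ± 0.32) and Kif11 (-1.11 ± 0.34) and the proliferation marker Mki67 (-1.03 ± 0.32) overlapped, since miR-29a replicate 2 reached the lower NC-miR library.

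The unfolded protein response, which adjusts the endoplasmic reticulum to its protein load, showed 7 of 25 measured genes lower in all 4 (28.0%, against 9.9% of all features) and none higher. Their median was -0.17, or -0.11 without miR-29a replicate 1. Dnajc3, a chaperone partner of the reticulum, stood at -0.08, -0.07, 0.02 and -0.10 against 0.21 and 0.31, and Hsp90b1, its HSP90 chaperone, at 0.17, -0.06, -0.07 and 0.37 against 0.51 and 0.42. Hspa5, the master chaperone BiP, overlapped at -0.31 ± 0.13. Sec61b, a subunit of the translocation channel, leaned the other way at 0.28 ± 0.12. Of 24 measured cholesterol synthesis genes 1 was higher and 1 lower (4.2% each, against 10.9% and 9.9% of all features), with a median of -0.01 that was 0.17 without NC-miR replicate 1 and -0.18 without replicate 2. Of 16 cytosolic heat shock chaperones 3 were lower (18.8%, against 9.9%) and none higher, with a median of 0.03, or -0.01 and -0.13 without NC-miR replicates 1 and 2 and -0.06 without miR-29b replicate 2.

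Of 25 measured xenobiotic conjugation and cytochrome P450 genes, which detoxify foreign compounds, 7 were higher in all 4 libraries (28.0%, against 10.9% of all features) and 1 lower (4.0%, against 9.9%), with a median of 0.26. Of 24 fatty acid oxidation and PPAR target genes 7 were higher (29.2%) and 1 lower (4.2%), with a median of 0.19. The median of the first list was 0.26 without NC-miR replicate 1 and 0.33 without replicate 2. Cyp2s1, a cytochrome P450, stood at 0.42, 0.43, 0.46 and 0.77 against -0.06 and 0.10, and Gsta4, a glutathione transferase, at 0.21, 0.43, 0.42 and 0.38 against -0.09 and -0.21. Aldh1a1, a retinal dehydrogenase, was higher by 0.30 ± 0.11. Acot2, a mitochondrial acyl-CoA thioesterase, stood at 0.43, -0.18, -0.23 and -0.56 against -1.32 and -0.68, and Slc25a20, the carnitine carrier, was higher by 0.42 ± 0.17. Acaa2 and Pdk4 overlapped.

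**Figure D4:**
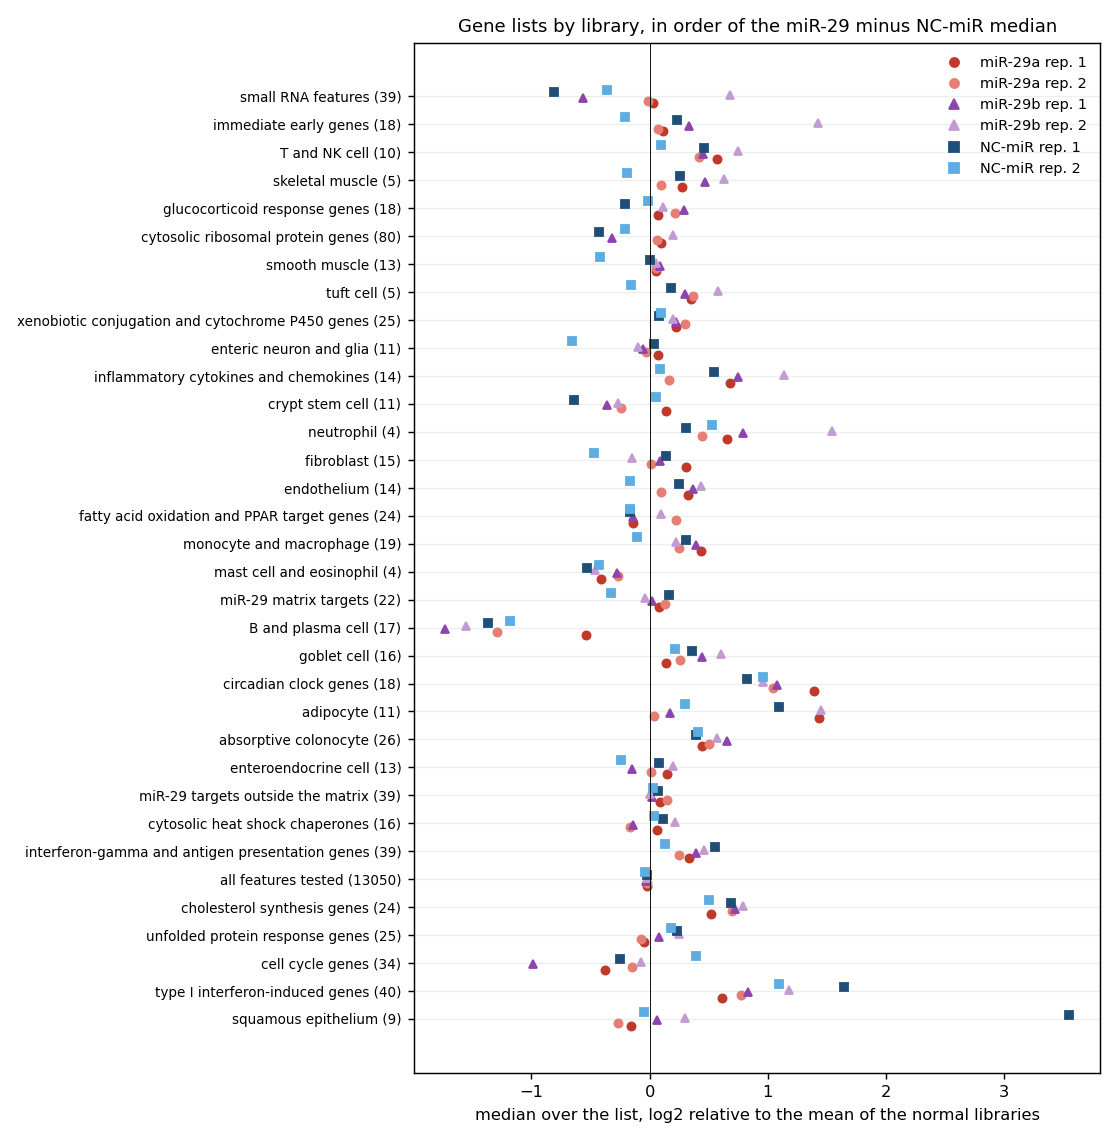
Median of each gene list with at least 4 measured genes (number in brackets) in the 6 day 4 libraries, as log2 relative to the mean of the 2 normal libraries, ordered by the miR-29 minus NC-miR median. The squamous list stands at 3.55 in NC-miR replicate 1 alone, and immediate early genes at 1.42 in miR-29b replicate 2 alone.

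Lists of established miR-29 targets showed few genes without overlap. Of 22 measured matrix targets 1 was higher in all 4 libraries (4.5%, against 10.9% of all features) and none lower (against 9.9%). Of 39 other targets 3 were higher (7.7%) and 2 lower (5.1%), with a median of 0.04 that was 0.01 to 0.12 with 1 library left out. The matrix median of 0.17 depended on the controls: it was 0.40 without NC-miR replicate 1 and -0.08 without replicate 2. It was 0.05 with GC content and length removed. Col1a1, a chain of collagen I, stood at 0.44, 0.22, 0.19 and 0.45 against 0.30 and -0.21 (difference 0.28 ± 0.19, limma adjusted p = 0.576). Col3a1 stood at 0.07, 0.18, 0.12 and 0.01 against 0.27 and -0.13, and Eln, elastin, at -0.58, -0.39, -0.33 and -0.51 against -0.25 and -0.99. In each of these 3 genes the miR-29 libraries overlapped with the NC-miR libraries. Col4a2 (0.25 ± 0.17) and Hspg2, the basement membrane protein perlecan (0.29 ± 0.15), overlapped, and Mmp2, a gelatinase, was higher in all 4 by 0.35 ± 0.14.

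Outside the matrix, the DNA methyltransferase Dnmt3a stood at -0.18, 0.21, -0.07 and -0.42 against -0.27 and -0.18 (difference 0.11 ± 0.19), and Dnmt3b lay at the floor in 9 of the 10 libraries. The demethylase Tet3 differed by 0.05 ± 0.14, the anti-apoptotic Mcl1 by -0.07 ± 0.13 and the cell cycle kinase Cdk6 by 0.37 ± 0.30. The pro-apoptotic gene Bmf was higher in all 4, at 0.07, 0.20, -0.27 and -0.60 against -0.82 and -0.81 (difference 0.66 ± 0.18, limma adjusted p = 0.385), as was Abcb6, a porphyrin transporter (0.33 ± 0.15). Bcl2l11, which encodes the pro-apoptotic protein BIM, and Pdgfc, a growth factor, overlapped, at 0.28 ± 0.15 and 0.48 ± 0.20. The sites themselves were present: 15 of 21 matrix targets with an annotated 3′ UTR (71.4%) and 34 of 39 others (87.2%) held the letters TGGTGCT, complementary to the 3p seed, on the transcript strand, against 14.9% of all 12422 measured genes with one. Stretches of 30 bases that end in a site are shown for targets described above, with the seed match and a following A in capitals (GENCODE M21 transcripts, GRCm38).
Col1a1: gggtggggtgggaaggaatttcTGGTGCTA
Col3a1: ttccaacttcaaaatgtctcaaTGGTGCTA
Eln: agtctccatctccaagggaaatTGGTGCTA
Dnmt3a: gcccttgcccaggggaggtagcTGGTGCTA
Mcl1: aagcaggctagagtcttaaccaTGGTGCTA
Bmf: ttatgtatgtaaggaaagacatTGGTGCTA
They lie at chr11:94952516-94952545, chr1:45348960-45348989 and chr12:3911383-3911412 and chr3:95661837-95661866 on the plus strand for Col1a1, Col3a1, Dnmt3a and Mcl1. The sites of Eln and Bmf lie at chr5:134703489-134703518 and chr2:118531356-118531385 on the minus strand.

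Across all genes, those with a seed match differed little from those without once compared at like 3′ UTR length. The 1852 genes with a match had a median difference of -0.03 and the 10570 without one 0.03. Of those with a match 7.3% were higher in all 4 libraries and 12.2% lower, against 11.5% and 9.7% of those without. Split into 3 classes of 3′ UTR length, the medians with and without a match were 0.09 and 0.11 in the shortest, 0.02 and 0.02 in the middle and -0.07 and -0.06 in the longest class. Matches to the seeds of the passenger arms gave negative medians too, at -0.07 for miR-29a-5p, -0.04 for miR-29b-1-5p and -0.05 for miR-29b-2-5p, against -0.03 for the 3p seed.

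Base composition moved with the comparison. The median GC content of the transcript was 55.0% for the features higher in all 4 libraries, 43.9% for those lower in all 4 and 50.1% for all features. Their median lengths were 2111, 4040 and 2993 bases. Of 5 classes of equal size, the lowest in GC content had 1.4% of features higher and 26.7% lower, and in the highest class 23.3% were higher and 0.5% lower. The trend was not the same in every library: in the highest class the median stood at 0.02 and -0.04 with miR-29a, at 0.07 and 0.18 with miR-29b, and at -0.08 and -0.18 with NC-miR. With the trend of GC content and length removed from each library, 895 features were higher in all 4 (634 shared with the 1421) and 1059 lower (593 shared with the 1292). Under that alternative, added after the data were seen, the difference was 1.41 for Rpl30, 1.11 for Id1, 0.89 for Ugt1a1, -0.93 for Aqp4 and -1.22 for Oasl2. The part of base composition in other single genes was not tested.

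**Figure D5:**
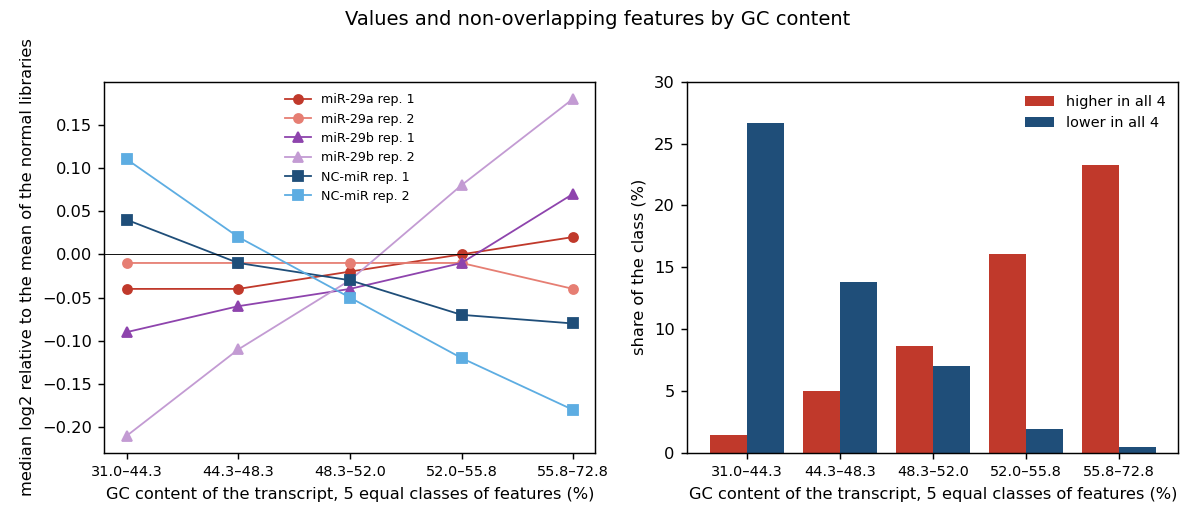
Left, median log2 value relative to the mean of the normal libraries in 5 classes of transcript GC content (x axis, %), 1 line per day 4 library. Right, share (%) of each class that lay higher (red) or lower (blue) in all 4 miR-29 libraries. The lower features gather in the lowest class (26.7%) and the higher features in the highest (23.3%).

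Markers of cell types were described to show which tissue components moved with the comparison. In bulk tissue fewer cells of a type and less RNA per cell cannot be told apart. Of 26 measured absorptive colonocyte genes 5 were higher in all 4 (19.2%, against 10.9% of all features) and 1 lower (3.8%, against 9.9%), with a median of 0.08, or 0.05 without miR-29b replicate 2 and 0.04 with GC content and length removed. Aqp8, a colonocyte water channel, stood at 1.78 and 1.90 with miR-29a, at 1.21 and 1.38 with miR-29b, and at 0.82 and 1.06 with NC-miR. Guca2a, the gut peptide guanylin, overlapped because it split by miRNA, at -0.83 and -0.38 with miR-29a and 0.37 and 0.57 with miR-29b against -0.30 and -0.87. Trpm6, a magnesium channel, leaned lower at -0.43 ± 0.18. The goblet cell median was 0.15, but 0.03 without NC-miR replicate 2, 0.04 and 0.09 without miR-29b replicates 2 and 1, and 0.05 with GC content and length removed. The crypt stem cell median was 0.24, but -0.11 without NC-miR replicate 1 and 0.44 without replicate 2. It was 0.42 without miR-29b replicate 1 and 0.15 without miR-29a replicate 1 or miR-29b replicate 2.

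Stromal lists were higher with miR-29 mainly against a single control library. All 13 measured smooth muscle genes had a higher mean and 5 were higher in all 4 (38.5%, against 10.9% of all features), with a median of 0.32, or 0.19 with GC content and length removed. Against NC-miR replicate 2 alone 12 of the 13 were above in all 4 miR-29 libraries, as were 3500 of all 13050 features. The median was 0.03 without NC-miR replicate 2 and 0.56 without replicate 1. Tagln, an actin-binding protein of smooth muscle, stood at 0.22, 0.23, 0.22 and 0.36 against 0.03 and -0.42, and Acta2, smooth muscle actin, at 0.05, 0.03, 0.05 and 0.12 against -0.02 and -0.62. Myl9 and Tpm2, also of the contractile apparatus, differed by 0.39 ± 0.15 and 0.40 ± 0.17. The medians of fibroblast, endothelium and enteric neuron and glia genes were 0.21, 0.19 and 0.25, without NC-miR replicate 2 they were -0.04, -0.02 and -0.08, and without replicate 1 they were 0.45, 0.47 and 0.58. The endothelium median was also 0.12 without miR-29b replicate 1, and the fibroblast median 0.13 without miR-29a replicate 1. Among them Thy1 and Dpt of fibroblasts differed by 0.49 ± 0.16 and 0.40 ± 0.13, and Tubb3 of neurons stood at 0.03 in NC-miR replicate 1 and -0.76 in replicate 2. Vwf, the clotting factor of endothelium, was an exception, at 0.88, 0.61, 0.79 and 0.82 against 0.23 and -0.11 (difference 0.71 ± 0.14, limma adjusted p = 0.248).

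The squamous list rested on NC-miR replicate 1 in the opposite sense. Its 9 measured genes had a median difference of -1.36, which was 0.13 without that library and -2.97 without replicate 2. Krt13 lay at 5.51 and Krt10 at 3.68 in NC-miR replicate 1, against -0.05 and 0.34 in replicate 2, and Krt13 lay at the floor in 2 of the miR-29 libraries and in NC-miR replicate 2. The same library had the highest interferon median, and the part of squamous tissue in the interferon values was not tested. The median difference of the interferon list without that library is the -0.31 given above.

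Immune cell lists differed in their shares of separated genes. Of 10 measured T and NK cell genes 3 were higher in all 4 libraries (30%, against 10.9% of all features) and 1 lower (10%, against 9.9%), with a median of 0.43, or 0.10 without NC-miR replicate 2. Cd3d, a chain of the T cell receptor complex, stood at 0.17, -0.20, 0.07 and 0.53 against -0.60 and -0.65, with 1 NC-miR library at the floor (difference 0.77 ± 0.17, limma adjusted p = 0.315). Lck, the kinase of that receptor, was higher in all 4 at 0.59 ± 0.15, while Gzma, a cytotoxic protease, was lower in all 4 at -0.74 ± 0.41. B and plasma cell genes stood below normal in all 6 libraries in their median (-0.54, -1.29, -1.73 and -1.55 with miR-29 and -1.37 and -1.18 with NC-miR). Of the 17 measured, 1 was higher in all 4 (5.9%, below the 10.9% of all features) and none lower (against 9.9%). It was the B cell factor Spib (0.73 ± 0.16, limma adjusted p = 0.315). Alox5ap, which helps to make leukotrienes and is listed for tuft cells, was higher by 0.78 ± 0.19. Monocyte and macrophage genes had 2 of 19 higher in all 4 (10.5%, near the 10.9% of all features), with a median of 0.18, or 0.40 and 0.01 without NC-miR replicates 1 and 2. The lists for neutrophils (4 measured), mast cells and eosinophils (4) and adipocytes (11) had no gene without overlap.

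Pooling both miRNAs assumes that they acted on the tissue to a like degree, and the pool was compared within itself. No feature differed between miR-29a and miR-29b in limma after adjustment, and 970 (7.43%) had an unadjusted p under 0.05. Among the 2713 features without overlap against NC-miR 96 did (3.5%), a share that the rule itself limits because all 4 libraries had to lie on 1 side. The contrasts of each miRNA with NC-miR share the NC-miR libraries and are therefore given side by side. Id1 differed by 0.83 in miR-29a and 1.75 in miR-29b, and Ugt1a1 by 1.22 and 0.53. The interferon list had medians of -0.71 and -0.44, the ribosomal protein list 0.41 and 0.27, and the immediate early list 0.18 and 0.99. Unadjusted p for miR-29a against miR-29b was 0.000161 for Serpina9, 0.00116 for Ugt1a1, 0.0018 for Id1 and 0.00581 for Id3, each with an adjusted p of 0.665.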

How the data were processed

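RNA of 10 colorectum libraries was sequenced after stranded mRNA preparation, per the labels' protocols. The submitters' processing notes name the build mm10, Cuffnorm 2.2.1, TopHat2 2.0.13, SAMtools 0.1.19 and Bowtie2 2.2.3, without settings. Per the file headers the values are FPKM, but the deposited numbers are log2 ratios to a per-gene baseline. Base 2 was read from the values: 91.9% of 6618 low values fell on a grid of 6 significant digits within 0.1 of a step, against 20.0% with base e. The most frequent value of a library (-0.0427 to 0.0331) marks its floor, whose height is not stated. A difference from a group at the floor therefore has no linear fold, and its standard error may be too small. Depth is unknown, so its effect on precision could not be judged. A log2(FPKM + pseudocount) scale had been planned and could not be used on these values.

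The main test was limma 3.58.1 in R 4.3.3 on the deposited values, with 5 group means over 10 libraries (5 residual and 3.26 prior degrees of freedom), the mean of miR-29a and miR-29b minus NC-miR on day 4, 2-sided p and Benjamini-Hochberg adjustment over 13050 features, with calls under 0.05. Errors are limma standard errors. A feature counted as separated only if no floor value stood on both sides. The script was tested on simulated data. GC content, length and 3′ UTRs came from the longest GENCODE M21 transcript (98.9% of tested features matched). Of 689 listed genes 672 were in the table, and 25 identifiers had been turned into dates.

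The comparison and the gene lists were chosen with earlier results of these data known. Genes named were the calls, the 12 of smallest p in each direction among separated features above the floor in all 6 libraries, up to 4 of smallest p in a list, fixed genes and floor switches. Id2, Id4, Smad6, Smad7, Mir678 and Rpl4 were chosen after their values were seen, and some genes are not reported here. Alternatives were other filters, library centring, quantile normalization, robust variances, fits to 6 libraries, a replicate block and leaving out each library.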

Additional observations from a re-analysis of the deposited data

Results flagged for a closer look

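In a group of 4 libraries, a library was singled out when its gap to the nearest other, as a share of the group's range, exceeded Dixon's critical value, which chance passes in about 1 group of 20. 148 results named in the text were checked and 10 were singled out. They are log2 values relative to normal over the 4 miR-29 libraries.

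Most of them are the high value of miR-29b replicate 2. That library stood at 1.10 for Il1b, a pro-inflammatory cytokine, at 0.77 for Cyp2s1, at 0.57 for Abcb6, at 0.56 for Rplp2, at 0.36 for Tagln, at 0.26 for Lck and at 0.19 for Ccl20. The median of the smooth muscle list was 0.09 in miR-29b replicate 1, against 0.05 in each of the other 3. Both remaining items are small RNA features that lay at the floor in some libraries. Mir678 was at the floor in miR-29a replicate 2 (-10.49) and above it in the other miR-29 libraries. Mir1892 was above the floor in miR-29a replicate 1 (-0.53) and at the floor in the other miR-29 libraries.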

How the results depend on the processing

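The test for the pooled comparison called 1 feature. It called 2 with 2 groups fitted to the 6 libraries (Snord16a and Gm14393, at -1.24 with an adjusted p of 0.0422), 0 among features above the floor in all 10 libraries and 0 with robust variances. Without the filter on low values Ghrl was called in place of Snord16a. Leaving out 1 library gave 0 to 5 calls. The 5 came without NC-miR replicate 2 and included Krt13 (-5.49), Krt14 (-6.63) and Spink5 (-1.60), high in the NC-miR library that remained, a lone library assumed to vary like the other groups. Between miR-29a and miR-29b there were 0 to 1 calls when 1 library was left out. The 1421 higher and 1292 lower features without overlap became 22 and 18 with a gap of at least 0.5. With GC content and length removed they were 895 and 1059. Without 1 library there were 1849 to 3500 higher and 1567 to 2906 lower, most without NC-miR replicate 1 (3500 and 2906) and replicate 2 (2838 and 2817), since fewer libraries have to be passed. Library centring gave 1372 and 1362, the library constant removed 1293 and 1422, and quantile normalization 1167 and 1395. Directions were compared for differences beyond their standard error. Without NC-miR replicate 1 those of Cdk6 (-0.02, but 0.76 without replicate 2), Mir29c (-0.22, 1.77), Krt13 (0.07, -5.49) and Krt10 (0.08, -3.26) reversed, and without replicate 2 that of Col4a2 (-0.05, but 0.55 without replicate 1).

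Replicate numbers did not pair the samples. Deviations of same-numbered libraries from their group means correlated at 0.08 for miR-29a and NC-miR, 0.04 for miR-29b and NC-miR and -0.1 for miR-29a and miR-29b. With the replicate block the pooled comparison still gave 1 call, Snord16a, and 0 calls between miR-29a and miR-29b. The files hold no counts, so no limit from depth can be given.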
